A study of Mus musculus with 16 samples.

Results

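The major urinary protein genes of the mouse form a cluster of close copies, and their messenger RNA was followed in regenerating liver. Genes were taken as members when their symbol was Mup or Mup-ps followed by a number, which gave 49 of the 54838 annotated genes. Of these, 22 carry the plain Mup symbol and are annotated as protein coding, and 27 carry the -ps suffix and are annotated as pseudogenes. Whole liver of wild-type male C57BL/6J mice was sequenced as mRNA in 4 groups that share strain, sex and genotype. The CCl4 group (n = 3) received 2 µL per g body weight of carbon tetrachloride mixed 1:1 by volume with olive oil into the peritoneum, and the olive oil group (n = 3) received the same volume of oil alone, both with liver taken at day 3. Partial hepatectomy (PH) removes part of the liver, and here the resected tissue served as PH day 0 (n = 5) and liver taken 3 days after surgery as PH day 3 (n = 5). Ages are not given in the sources used here. All groups are whole tissue, so hepatocytes and other liver cells were measured together. Each sample is called a liver below for short, although the labels do not state that each is a separate animal. CCl4 liver 1 stood apart from its group: its counts differed from those of CCl4 livers 2 and 3 with a chi-square per degree of freedom of 71.7 and 72.3, beside 8.97 between livers 2 and 3 and at most 23.8 in the other groups.

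Major urinary proteins are small secreted lipocalins with a barrel-shaped pocket that binds volatile pheromones and releases them slowly from urine marks. Hepatocytes make most of them and pass them through the blood to the kidney. Adult male liver expresses them far more strongly than female liver, under pulsatile growth hormone, androgen, thyroid hormone and glucocorticoid signals. Mup20 encodes darcin, a male pheromone that attracts females, and Mup1 has been studied as a circulating regulator of glucose and lipid metabolism. Because the copies arose by recent duplication, many of their transcripts are nearly identical, and reads that fit several genes were not counted.

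On GRCm38, 48 members lie on chromosome 4 between positions 59956804 and 62150863, a span of 2194 kb, and Mup-ps22 lies alone on chromosome 11 (55123695 to 55123937). Of the 22 plain Mup genes, 21 are on the minus strand and 1, Mup6, is on the plus strand. RefSeq promoter tables (GRCm38.p6) held a window for 14 of the 22 plain Mup genes. The 250 bases upstream of the annotated start are shown for 5 of them, because they compare the most abundant copy (Mup15), the pair at the far end of the cluster (Mup3 and Mup21) and the pair at its near end (Mup6 and Mup4). The windows are chr4:61439705-61439954, chr4:62087318-62087567, chr4:62150842-62151091 and chr4:59960668-59960917 on the minus strand and chr4:60003231-60003480 on the plus strand. Capitals mark the TATA run TATATAA and the letters ATCAAT, which is the Onecut (hepatocyte nuclear factor 6) core ATTGAT read on the other strand.
Mup15: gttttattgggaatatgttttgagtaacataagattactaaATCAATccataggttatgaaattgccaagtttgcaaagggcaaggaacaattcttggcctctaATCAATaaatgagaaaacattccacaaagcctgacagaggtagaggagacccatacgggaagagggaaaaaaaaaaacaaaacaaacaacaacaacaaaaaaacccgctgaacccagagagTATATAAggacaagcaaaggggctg
Mup3: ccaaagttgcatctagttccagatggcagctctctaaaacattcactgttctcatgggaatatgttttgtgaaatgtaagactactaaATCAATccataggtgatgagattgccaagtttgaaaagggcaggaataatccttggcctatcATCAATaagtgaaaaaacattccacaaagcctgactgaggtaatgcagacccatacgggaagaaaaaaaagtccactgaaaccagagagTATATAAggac
Mup21: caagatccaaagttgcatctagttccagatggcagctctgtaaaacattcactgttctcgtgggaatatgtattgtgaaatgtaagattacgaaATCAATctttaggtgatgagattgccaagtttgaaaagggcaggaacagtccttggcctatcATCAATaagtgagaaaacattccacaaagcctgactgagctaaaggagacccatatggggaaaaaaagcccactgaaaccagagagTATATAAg
Mup6: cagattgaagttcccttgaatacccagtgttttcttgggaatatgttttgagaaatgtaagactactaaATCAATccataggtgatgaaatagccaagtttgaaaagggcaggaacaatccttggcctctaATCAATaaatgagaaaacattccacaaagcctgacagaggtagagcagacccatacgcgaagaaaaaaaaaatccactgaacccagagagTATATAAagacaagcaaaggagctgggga
Mup4: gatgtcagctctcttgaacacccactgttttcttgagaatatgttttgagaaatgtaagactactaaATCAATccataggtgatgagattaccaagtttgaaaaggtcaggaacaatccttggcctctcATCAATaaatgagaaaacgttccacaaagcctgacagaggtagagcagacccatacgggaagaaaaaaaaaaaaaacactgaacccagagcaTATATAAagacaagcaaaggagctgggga

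ATTGAT, searched on both strands, was present in 14 of 14 Mup windows and in 6.72% of 32851 RefSeq windows of the same length. TATATAA was present in 11 of 14, against 3.04% of all windows. The STAT5 spacing TTCNNNGAA was in 0 of 14 and in 7.02% of all windows. The steroid receptor half-site TGTTCT was in 2 of 14, Mup3 and Mup21, and in 16.1% of all windows. These are matches of letters in a short window and say nothing of binding. The windows belong to close copies, so the 14 are not separate observations. The window of Mup7, without a TATATAA match, aligned with that of Mup2 over 116 bases only. The windows are thus not all placed alike, and the part of this in the matches was not tested. After alignment, the Mup15 window was identical to that of Mup17 at 247 of 247 aligned bases, and it matched Mup4 at 90.9% of 220, Mup6 at 92.7% of 218, Mup3 at 81.3% of 203 and Mup21 at 80.1% of 196. The Mup3 and Mup21 promoters therefore differ most from Mup15 among the 5 windows shown.

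The Mup cluster fell after both challenges, and it fell further after CCl4. Members together took 11.3%, 14.0% and 16.7% of all gene counts in the 3 olive oil livers, and 1.25%, 2.35% and 2.15% in the 3 CCl4 livers. At PH day 0 they took 20.4%, 17.5%, 13.0%, 12.5% and 12.6% in samples 16, 12, 13, 14 and 15, the order used for that group throughout. At PH day 3 they took 3.37%, 5.26%, 3.62%, 3.86% and 5.21% in samples 12 to 16. In both experiments each treated or regenerating liver lay below each of its controls, and the ranges of the control groups overlapped. The counting intervals were narrow beside the spread between livers (1.24% to 1.26% for CCl4 liver 1, Wilson 95%).

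**Figure D1:**
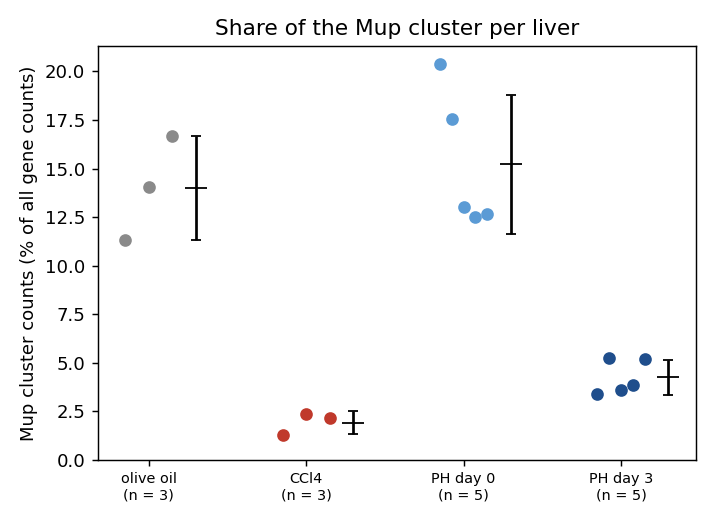
Percent of all gene counts that fell on the 49 Mup members (y axis) in each liver (points) of the 4 groups (x axis), with the group mean and SD beside the points. The CCl4 livers lie at 1.25% to 2.35% and the PH day 3 livers at 3.37% to 5.26%, below the control livers at 11.3% to 20.4%.

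In CPM, counts scaled to a fixed library total with TMM factors, the cluster sum was 158676 ± 36153 in olive oil and 15768 ± 2691 after CCl4 (SD, n = 3 each). It was 163877 ± 46427 at PH day 0 and 41109 ± 8180 at PH day 3 (SD, n = 5 each). With all members summed into 1 row, the log2 fold change was -3.35 ± 0.33 (SE) after CCl4, a 10.2-fold lower level (edgeR adjusted p = 0.000176). After PH it was -1.99 ± 0.20, a 3.96-fold lower level (edgeR adjusted p = 2.07e-05). Without CCl4 liver 1 the change after CCl4 was -3.21 (edgeR adjusted p = 7.57e-08). An exact two-sided permutation test of mean log2(CPM) gave p = 0.1 for CCl4 and p = 0.00794 for PH, which are the smallest values these designs allow. In whole tissue, fewer hepatocytes and less Mup RNA per hepatocyte cannot be told apart. The labels do not state that each sample is a separate animal, so p-values measure the spread between these samples.

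Total counts per sample ran from 2795909 to 8647503, and 3 counts corresponded to 0.369 to 1.03 CPM. All libraries shared 1 SLX identifier and lane by their file headers, which place the injected and surgical samples in separate experiments. The second index differed between the groups and was shared within each, apart from PH day 0 sample 16. Index and group therefore cannot be told apart. Albumin, the chief hepatocyte plasma protein, changed by -0.01 ± 0.27 after CCl4 (edgeR adjusted p = 0.988) and rose by 0.77 ± 0.11 after PH (edgeR adjusted p = 2.41e-05). Summed levels of 10 hepatocyte markers ranged over 107071 to 116095 CPM in olive oil livers and 96333 to 131243 in CCl4 livers. In the surgical samples the range was 84344 to 99084 CPM for resected tissue, and 120276 to 139342 CPM for regenerating liver. Over all genes tested, 11.6% were called lower and 11.3% higher after CCl4, and 8.01% lower and 9.73% higher after PH. Of the 10 hepatocyte markers, 1 fell after CCl4, a share near the all-gene one, and 2 fell and 2 rose after PH. Stellate cell and fibroblast markers summed to 166 to 208 CPM in olive oil and 453 to 1125 after CCl4, and 6 of 10 rose. In resected tissue they summed to 150.2 to 289.9 CPM and in regenerating liver to 269 to 853, and 5 of 10 rose. Red blood cell markers summed to 437 to 515 CPM in olive oil and 134 to 242 after CCl4, and 5 of 5 fell. They summed to 756 to 2046 CPM in resected tissue and 689 to 1884 in regenerating liver, and 1 of 5 (Alas2) fell. Macrophage and Kupffer cell markers summed to 179 to 543 CPM in olive oil and 436 to 629.6 after CCl4, and of 10 tested 3 rose and 1 fell. For resected tissue their sum was 218 to 326 CPM and for regenerating liver 246 to 472, and 1 of 9 tested (Marco) rose. Endothelial cell markers summed to 150.5 to 181 CPM in olive oil and 149 to 190.2 after CCl4, and 1 of 10 (Lyve1) rose. The endothelial sum was 228 to 300.3 CPM for resected tissue and 171 to 278 for regenerating liver, and 4 of 10 fell (Fcgr2b, Kdr, Clec4g and Dnase1l3). None of the markers in these 5 lists was at 0 in all livers. Cholangiocyte markers summed to 75.5 to 123 CPM in olive oil and 192 to 312 after CCl4, and 1 of 3 tested (Spp1) rose. For PH 0 of 3 were called. Pancreas acinar markers summed to 35.9 to 42.2 CPM in resected tissue and 16.7 to 22.5 in regenerating liver. Of 2 tested, 1 (Cela1) fell after PH and 0 after CCl4. Lymphocyte and neutrophil markers had at most 3 tested genes, with 0 called. The part of these cells in the Mup result was not tested.

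Counts were found for 44 of the 49 members. Mup-ps5, Mup-ps24, Mup-ps26, Mup-ps28 and Mup-ps29 had 0 counts in all 16 livers, below a limit of 3 counts. Mup4, better known from nasal and lacrimal tissue, had 78 counts over the 16 livers and did not pass the filter on low counts. Levels compared between genes are given per kb of exon. In olive oil, Mup15 stood highest at 42261 CPM per kb, followed by Mup12 at 23792, Mup16 at 12088, Mup7 at 11561, Mup5 at 11519 and Mup11 at 9557. Mup20 stood at 3152, Mup6 at 23.7 and Mup4 at 0.827 CPM per kb. The plain Mup genes therefore ranged widely in level, with abundant and scarce copies next to each other along the chromosome. Among the -ps members, Mup-ps19 was highest at 7950 CPM per kb in olive oil and 1963 after CCl4.

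**Figure D2:**
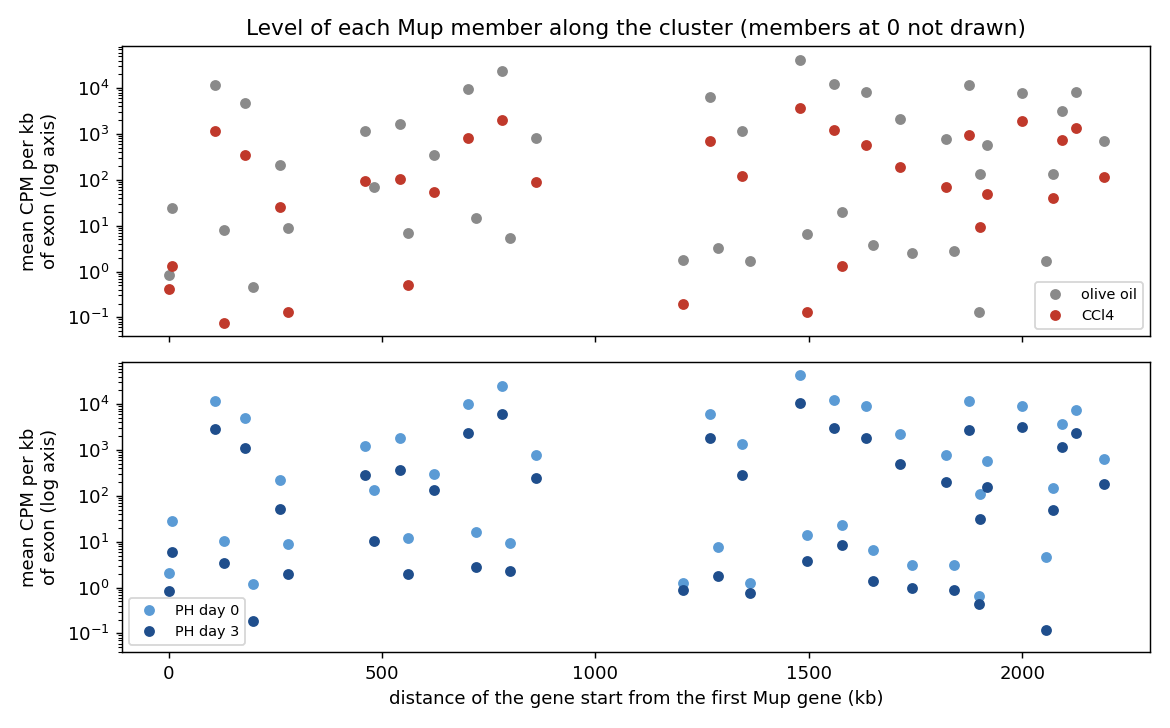
Mean level of each chromosome 4 member in CPM per kb of exon (y axis, log scale) against the distance of its start from the first Mup gene in kb (x axis), for olive oil and CCl4 (top) and for PH day 0 and PH day 3 (bottom). Each point is 1 member, and the lower points of each pair are the CCl4 and PH day 3 livers. Members at 0 in a group have no point for that group, among them Mup-ps4 and Mup-ps7 after CCl4.

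Per-liver levels show the abundant copies side by side. Mup15 stood at 29211, 39011 and 49052 CPM in the olive oil livers, 3118, 3588 and 3542 after CCl4, 54142, 51510, 33551, 30506 and 29459 at PH day 0 and 7264, 11064, 8828, 9711 and 11735 at PH day 3. For Mup15 the groups did not overlap in either experiment, and the change was -3.54 ± 0.31 (adjusted p = 6.63e-05) after CCl4 and -2.02 ± 0.20 (adjusted p = 6.73e-06) after PH by edgeR. Mup12 stood at 15457, 23645 and 26991 CPM in the olive oil livers, 1461, 2149 and 2134 after CCl4, 35116, 27254, 17538, 17368 and 18726 at PH day 0 and 4368, 7053, 4345, 5469 and 7195 at PH day 3. Mup12 fell by 11.7-fold after CCl4 and 4.05-fold after PH, with no overlap between groups. Mup11 stood at 11091, 15399 and 18694 CPM in the olive oil livers, 1154, 1398 and 1319 after CCl4, 22385, 19610, 12663, 12012 and 12487 at PH day 0 and 2814, 4667, 3361, 3434 and 4546 at PH day 3. Mup16 stood at 9203, 13420 and 15021 CPM in the olive oil livers, 1056, 1388 and 1297 after CCl4, 19785, 14755, 9464, 9012 and 9916 at PH day 0 and 2388, 3923, 2607, 3032 and 3961 at PH day 3. Mup11 and Mup16 likewise showed no overlap, and PH day 0 samples 16 and 12 were the highest of their group for both.

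Mup7 stood at 9712, 12671 and 13444 CPM in the olive oil livers, 1074, 1302 and 1166 after CCl4, 16227, 13450, 9835, 10205 and 11086 at PH day 0 and 2244, 4077, 2588, 2941 and 3320 at PH day 3. Mup5 stood at 7973, 11049 and 12942 CPM in the olive oil livers, 759, 916 and 919 after CCl4, 14974, 14105, 9306, 8314 and 8538 at PH day 0 and 2014, 2987, 2392, 2443 and 3105 at PH day 3. Mup5, whose transcript is among the most distinct of the cluster, changed by -3.64 ± 0.29 (adjusted p = 4.74e-05) after CCl4 and -2.08 ± 0.19 (adjusted p = 4.06e-06) after PH by edgeR. Mup7 changed by -3.36 ± 0.27 (adjusted p = 4.74e-05) and -1.99 ± 0.17 (adjusted p = 4.64e-07). Mup17 stood at 5220, 8086 and 9426 CPM in the olive oil livers, 459, 563 and 559 after CCl4, 13402, 11031, 6402, 6078 and 5713 at PH day 0 and 1353, 2033, 1495, 1589 and 2131 at PH day 3. Mup17 fell furthest of the 8 most abundant members, 14.6-fold after CCl4 and 4.92-fold after PH.

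Mup3 and Mup20 also fell in both experiments, with smaller fold changes after CCl4 than the copies above, a contrast between genes that was not tested. Mup3 stood at 9007, 7214 and 9979 CPM in the olive oil livers, 1019, 1864 and 1423 after CCl4, 7139, 9142, 7407, 8707 and 6849 at PH day 0 and 2066, 2836, 3258, 2463 and 2233 at PH day 3. Mup3 changed by -2.63 ± 0.30 (adjusted p = 0.000307) after CCl4 and -1.60 ± 0.13 (adjusted p = 3.29e-09) after PH by edgeR, and its groups did not overlap. Mup20 stood at 2803, 2297 and 3676 CPM in the olive oil livers, 307, 923 and 781 after CCl4, 4176, 2842, 3505, 3193 and 3077 at PH day 0 and 797, 1316, 841, 866 and 1549 at PH day 3. For Mup20 (darcin) the CCl4 liver 1 was the lowest of the 16, and the groups did not overlap in either experiment. Mup20 changed by -2.15 ± 0.40 (adjusted p = 0.00466) after CCl4 and -1.63 ± 0.19 (adjusted p = 7.69e-05) after PH by edgeR. Without CCl4 liver 1 its change after CCl4 was -1.79 (edgeR adjusted p = 1.81e-05).

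**Figure D3:**
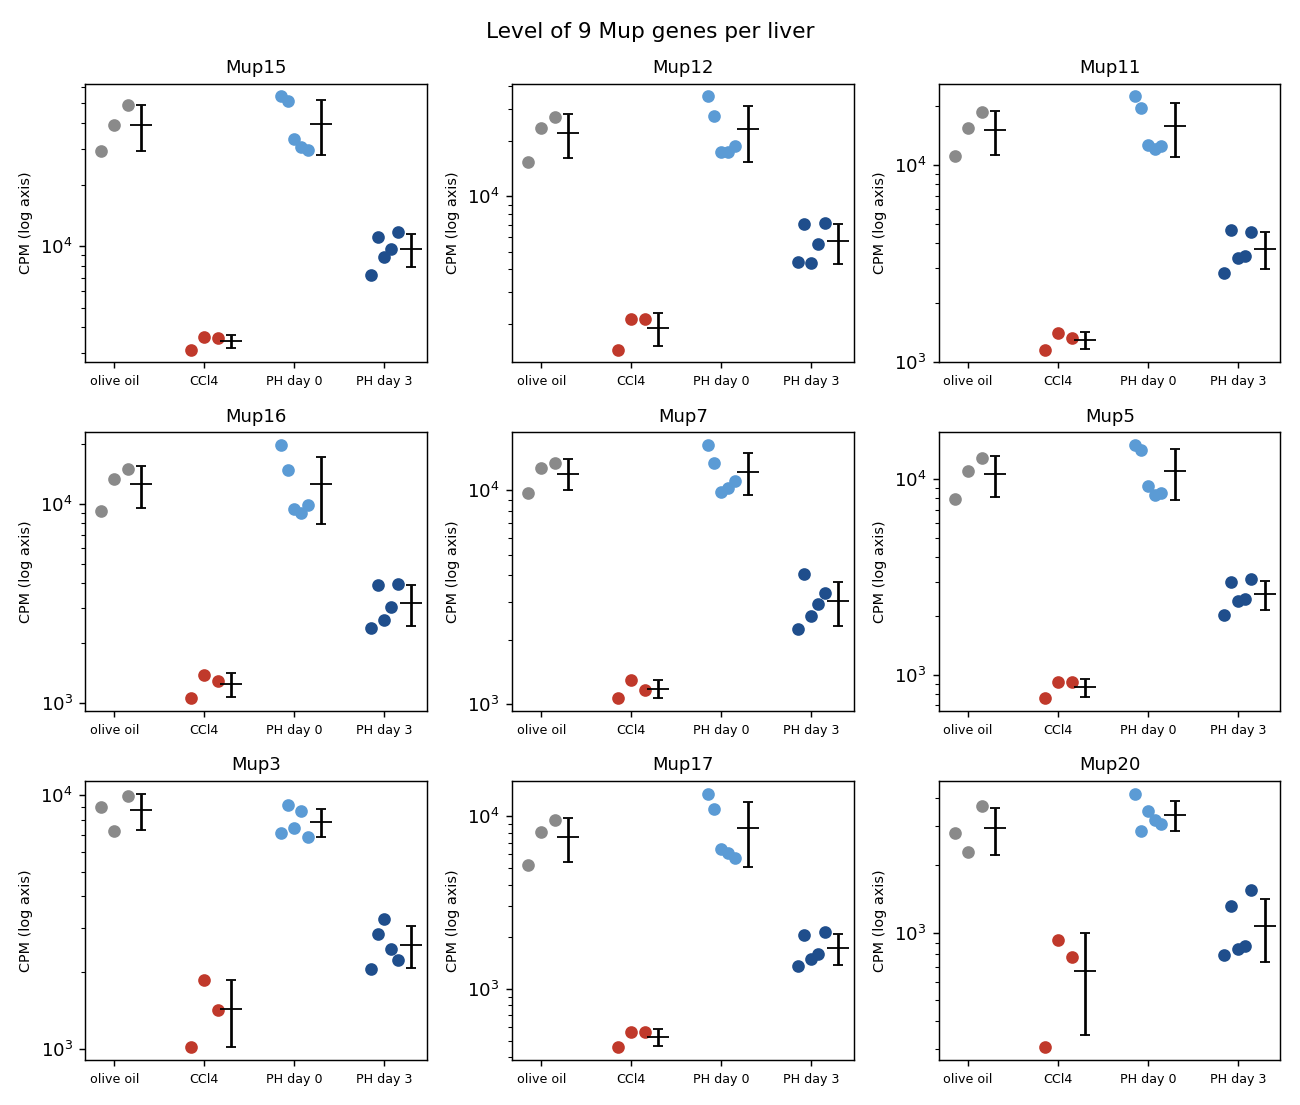
CPM (y axis, log scale) of the 8 members of highest mean level and of Mup20 in each liver (points) by group (x axis), with group mean and SD. In each of the 9 panels the CCl4 and PH day 3 livers lie below their controls.

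Of the 49 members, 31 passed the low-count filter in the CCl4 comparison and 31 of those 31 fell, where 11.6% of 11337 tested genes were called lower. After PH, 33 passed and 33 of 33 fell, where 8.01% of 10546 tested genes were called lower. The 31 members called after CCl4 were all among the 33 called after PH. Livers did not overlap between groups for 31 of 31 after CCl4 (20.1% of tested genes lay lower without overlap) and for 29 of 33 after PH (6.51%). In each comparison, 8 of the tested members had under 10 counts in some CCl4 or PH day 3 liver, and members this low can pass the filter through the control livers. Without CCl4 liver 1, 33 of 34 tested members fell after CCl4. The median log2 fold change of tested members was -3.54 after CCl4 and -2.02 after PH, beside 0.01 and -0.01 over all genes tested. The 21 tested plain Mup genes ranged from -4.26 (Mup6, a low-count gene) to -2.15 (Mup20) after CCl4 and from -2.30 (Mup17) to -1.17 (Mup10) after PH. Scaled by library size in place of TMM, all-gene calls split into 423 lower and 2973 higher after CCl4, against 1320 and 1279, and into 432 and 1617 after PH, against 845 and 1026. Under that scaling the all-gene median shifted to 0.46 and 0.13, and 30 of 31 and 33 of 33 members were called lower.

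Other plain Mup genes followed the same direction. After CCl4, Mup1 changed by -3.97, Mup2 by -3.82, Mup9 by -3.67, Mup18 by -3.52, Mup19 by -3.50, Mup14 by -3.25, Mup22 by -3.22, Mup13 by -3.20, Mup8 by -3.11, Mup10 by -2.72 and Mup21 by -2.58 on the log2 scale. After PH, the same genes changed by -2.29 (Mup1), -2.15 (Mup2), -2.04 (Mup9), -2.14 (Mup18), -1.93 (Mup19), -2.28 (Mup14), -1.64 (Mup22), -1.72 (Mup13), -2.12 (Mup8), -1.17 (Mup10) and -1.82 (Mup21). Each passed the edgeR test in both comparisons. Mup10 fell least of the plain genes after PH, to 133 CPM per kb from 300.5.

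Pseudogene members gave the widest range. Mup-ps4 had 489 counts over the olive oil livers and 0 over the CCl4 livers, at least 242-fold lower against a floor of 3 counts over the group. Mup-ps7 had 101 and 0, at least 49.9-fold lower by the same floor. With both at these bounds the CCl4 median of tested members was again -3.54. Mup-ps1 and Mup-ps3 had 1 count each after CCl4 against 55 and 61, ratios of 0.0123 (95% counting interval 0.000305 to 0.0712) and 0.0111 (0.000276 to 0.064). After PH, Mup-ps4 changed by -3.73 ± 0.75 (adjusted p = 0.01) by edgeR, the furthest fall of the tested members. Among the other pseudogenes, Mup-ps17 and Mup-ps18 changed by -3.83 and -3.60 after CCl4 and by -1.81 and -1.86 after PH, all called. Mup-ps6 and Mup-ps13 changed by -3.55 and -3.80 after CCl4 and by -2.60 and -1.44 after PH, also called. Mup-ps8 and Mup-ps12 were tested after PH alone, at -2.09 and -1.94, both called. Mup-ps6, Mup-ps13 and Mup-ps17 had under 10 counts in some CCl4 liver. Mup-ps4, Mup-ps6, Mup-ps8, Mup-ps12 and Mup-ps17 had so few in some PH day 3 liver. Members this low can pass the filter through the control livers, so their calls and sizes carry less weight. A further 11 members had counts but passed neither pairwise filter, none with more than 131 counts in all.

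**Figure D4:**
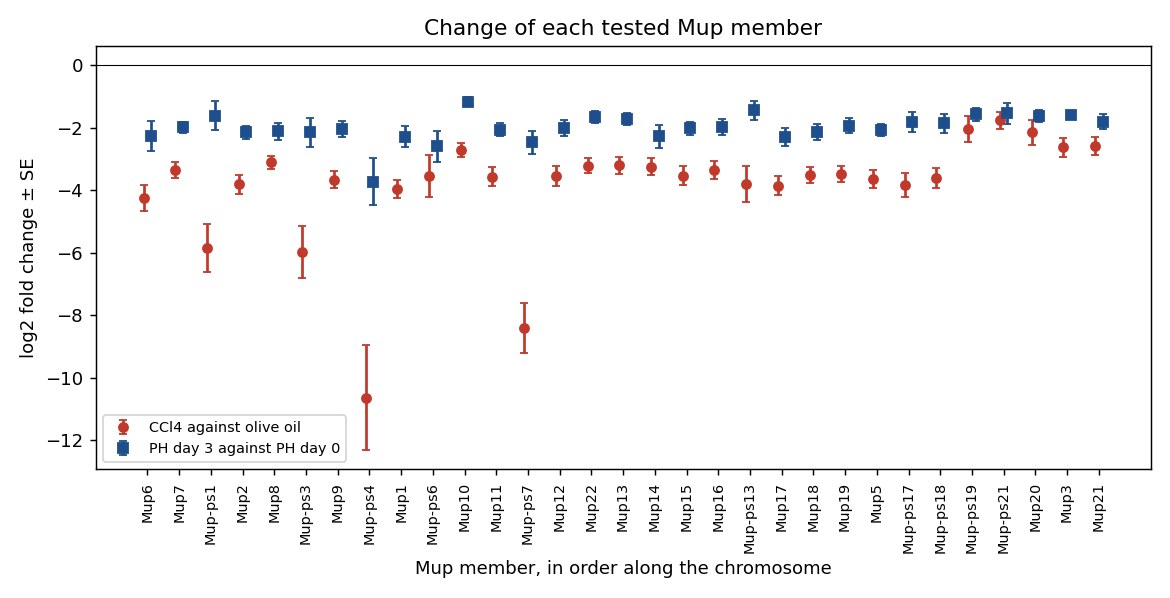
Log2 fold change with its SE (y axis) of the 31 members tested in both comparisons, in order along chromosome 4 (x axis), for CCl4 against olive oil (circles) and PH day 3 against PH day 0 (squares). All points lie below 0. Fitted values of Mup-ps4 and Mup-ps7 after CCl4 rest on 0 counts and are no measure of size.

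At the far end of the cluster, Mup-ps19, Mup-ps21, Mup20, Mup3 and Mup21 had the 5 smallest falls of the 31 tested members after CCl4, a set picked out after its values were seen and so described without a test. Mup-ps19 changed by -2.04 and Mup-ps21 by -1.77 after CCl4, beside -2.15 for Mup20. Their share of the cluster's counts was 13.5%, 8.24% and 9.98% in the olive oil livers and 14.3%, 24.5% and 20.7% in the CCl4 livers. The groups did not overlap, although CCl4 liver 1 lay close to olive oil liver 1. The 5 members were picked for their small falls after CCl4, so a higher share there follows from the choice. The share ran from 7.86% to 13.4% in resected tissue and from 12.2% to 15.1% in regenerating liver, with overlap. Exact permutation tests of each member's share over the 31 members tested in both comparisons, a test added after the data were seen, gave 0 members with an adjusted p under 0.05 in either comparison. For CCl4 the smallest p the design allows is 0.1. For PH, 9 members had an unadjusted p under 0.05, and 4 reached the smallest exact permutation p, 0.00794 (adjusted p = 0.0615), namely Mup10, Mup13 and Mup-ps13 with a higher share and Mup17 with a lower share.

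**Figure D5:**
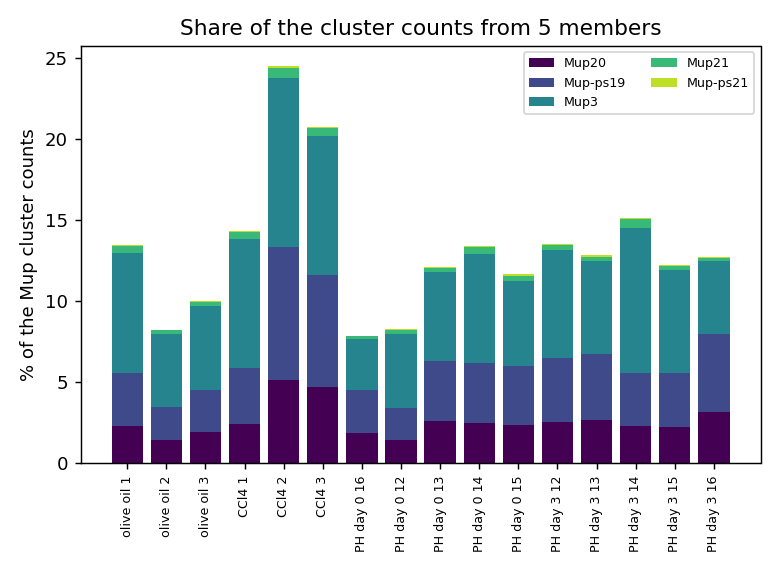
Percent of the Mup cluster counts (y axis) from Mup20, Mup-ps19, Mup3, Mup21 and Mup-ps21 (stacked) in each of the 16 livers (x axis). The summed share is 14.3% to 24.5% in the CCl4 livers and 8.24% to 13.5% in the olive oil livers. The members were picked for their small falls after CCl4, so the direction of this difference follows from the choice.

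The difference between both responses was tested in 1 fit of all 16 livers. The cluster sum fell further after CCl4 than after PH by 1.34 on the log2 scale (contrast -1.34 ± 0.30, edgeR adjusted p = 0.00907). Scaled by library size the contrast was -1.03 (edgeR adjusted p = 0.0811), and without the low-count filter it was -1.32 (edgeR adjusted p = 0.068), so the call was lost under both. Without CCl4 liver 1 it was -1.20 (edgeR adjusted p = 0.0422). Of 35 members tested, 20 had a larger fall after CCl4 and 0 a smaller one, where 3.87% of 11868 tested genes were called lower and 1.47% higher. The 20 were 16 of 21 tested plain genes and 4 of 14 tested pseudogenes. These 4 (Mup-ps1, Mup-ps3, Mup-ps7 and Mup-ps13) had under 10 counts in some CCl4 liver. Members this low can pass the filter through the other livers. The count of 20 members became 10 without olive oil liver 3, 14 (of 37 tested) without CCl4 liver 1 and 13 with library size scaling. The smallest adjusted p belonged to Mup10, at -1.52 ± 0.24 (adjusted p = 0.000693) by edgeR. Mup20 at -0.48 ± 0.43 (adjusted p = 0.603), Mup-ps19 at -0.44 ± 0.46 (adjusted p = 0.67) and Mup21 at -0.73 ± 0.39 (adjusted p = 0.336) did not pass, and in all 5 of the 21 tested plain genes did not, the others being Mup6, Mup8 and Mup14. Injection and surgery were separate experiments, so challenge and experiment cannot be told apart in this contrast.

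Near-identity of the copies bears on every single-gene value above. Each annotated transcript was cut into stretches of 50 bases and compared with all annotated transcripts. Mup15, Mup19 and Mup22 held 0 stretches of their own. With stretches of 150 bases the unique share was 9.28% for Mup15, 0.765% for Mup19 and 0% for Mup22. Mup15 carried 24.4% of all cluster counts. How those reads were assigned was not tested, and the read length is not given in the sources used here. Mup6, Mup4, Mup3, Mup5 and Mup21 were the most distinct plain genes, with 96.0%, 87.6%, 86.7%, 82.9% and 80.7% of their 50-base stretches unique. The other 17 plain genes had at most 49.5%. The 4 distinct plain genes that were tested had a median change of -3.13 after CCl4 and -1.95 after PH, beside -3.50 and -2.02 for the 17 others. Mup-ps19 shares 89.8% of its stretches with Mup20, and the ratio of Mup-ps19 to Mup20 counts was 1.37 to 1.59 in the 16 livers. Their values may therefore not be independent, and the assignment of their reads was not tested. The cluster sum does not depend on how reads were divided among members, although reads fitting several members remain uncounted in it.

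Lists of genes tied to Mup regulation were counted beside the all-gene shares, 11.6% lower and 11.3% higher after CCl4 and 8.01% lower and 9.73% higher after PH. Male-biased liver genes, which like Mup follow pulsatile growth hormone, fell for 12 of 19 tested after CCl4 (median -2.24) and 14 of 19 after PH (median -0.98), with 0 rising in both. Susd4 changed by -2.91 ± 0.22 and Cyp7b1, an oxysterol hydroxylase, by -2.67 ± 0.22 after CCl4 (edgeR adjusted p = 4.45e-05 and 5.33e-05). Hsd3b5, a male-specific steroid enzyme, changed by -3.34 ± 0.14 and Cyp7b1 by -1.89 ± 0.10 after PH (edgeR adjusted p = 9.22e-12 and 1.31e-11). With library size scaling 7 of these genes fell after CCl4, and without CCl4 liver 1, 16 of 20 did. Female-biased genes split, with 3 lower (Cyp2a4, Cyp2c40, Cyp2c69) and 1 higher (Abcd2) of 10 after CCl4, and 0 lower and 5 higher of 10 after PH, among them Cyp3a44 at 1.39 ± 0.15 and Cyp3a16 at 1.42 ± 0.15. The medians stood at -1.01 and 0.85.

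Of 16 growth hormone signalling genes, 3 fell and 1 rose after CCl4, and 4 fell after PH, beside 11.6% and 8.01% of all tested genes called lower. The count that rose after CCl4 was unstable, moving in 9 alternatives and staying the same in 3. Ghr, the growth hormone receptor, changed by -1.80 ± 0.25 after CCl4 and -0.65 ± 0.09 after PH, and Igfals, which carries IGF1 in blood, by -1.80 ± 0.19 and -0.51 ± 0.11 (edgeR adjusted p at most 0.00194). Stat5b, which relays the growth hormone pulse, was not called in either. Among transcription factors linked to Mup genes, 6 of 20 fell after CCl4 (all genes 11.6%), led by Tef at -1.84 ± 0.15 and Nr1h4 at -0.99 ± 0.15. After PH 3 of 19 fell (all genes 8.01%) and 1 (Trim24) rose, led by Cebpa at -0.64 ± 0.12 and Foxa1 at -0.94 ± 0.24. The count of factors that rose after PH moved in 8 alternatives and stayed the same in 9. The medians of the factor list were -0.37 and -0.42.

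Of 30 other abundant hepatocyte secreted proteins, 5 fell and 0 rose after CCl4 (median -0.32, all genes 11.6% lower), led by Apoa2 at -1.66 ± 0.30 and Apoc1 at -1.18 ± 0.21, both apolipoproteins. Without CCl4 liver 1, 15 of the 30 fell. After PH, 11 fell and 4 rose (median -0.03, all genes 8.01% lower and 9.73% higher), led by Serpina3k at -0.98 ± 0.12 and Serpina1d at -0.70 ± 0.10, and 6 fell and 6 rose with library size scaling. Of 9 other lipocalins, the protein family of Mup, C8g fell after CCl4 (-1.46 ± 0.17) and Apom, a carrier of sphingosine phosphate, rose (0.78 ± 0.16). After PH, C8g (-0.62 ± 0.10) and Rbp4 (-0.45 ± 0.10) fell and Ambp and Apom rose, counts too small to read against the all-gene shares. Without CCl4 liver 1, 2 of 10 lipocalins fell after CCl4. Of 23 secretory pathway genes 12 rose after CCl4 and 9 after PH, beside 11.3% and 9.73% of all tested genes, and 0 fell, with 19 and 15 rising under library size scaling. Ssr2 (0.80 ± 0.13) and Spcs3 (0.86 ± 0.16) led after CCl4, and Ssr3 (0.66 ± 0.09) and Sec61a1 (0.67 ± 0.09), all parts of protein entry into the endoplasmic reticulum, led after PH.

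Genes around the cluster did not fall as a block. Of 52 annotated non-members starting within 1 Mb of its ends or inside it, 22 were tested after CCl4, with 2 lower and 2 higher and a median of -0.05, and 21 after PH, with 2 lower and 4 higher and a median of -0.03. The shares called lower are near those of all genes, 11.6% after CCl4 and 8.01% after PH. Of all genes, 11.3% were called higher after CCl4 and 9.73% after PH. The 4 of 21 neighbours called higher after PH are a larger share than that, on a small count. Pole3 changed by 0.86 ± 0.19 after CCl4 (edgeR adjusted p = 0.00875), and Ptgr1 by 2.67 ± 0.27 and Alad by 0.40 ± 0.10 after PH (edgeR adjusted p = 1.99e-07 and 0.00657). Gm13775, which shares stretches of 50 bases with 20 Mup members, was called lower after CCl4 (edgeR adjusted p = 0.000238).

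Across the 16 livers, the 5 non-members of mean CPM at least 5 (of 9316) whose log2(CPM + 1) followed the cluster sum most closely were Cyp7b1 (Pearson r = 0.979), Pcyt2 (0.972), Tprkb (0.962), Ces3b (0.960) and Glo1 (0.960). These points share the group differences. For deviations from group means the highest were Ndufaf7 (0.866), Cwc22 (0.803), Hdac8 (0.785), Reep4 (0.773) and Mrps27 (0.772). Both lists are the top of 9316 genes over 16 samples, where high values can arise by chance, and were not tested. None of the first 5 genes was among the second 5.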

How the data were processed

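Polyadenylated RNA of 16 samples of whole liver tissue was sequenced, and 1 table per sample was used. The authors deposited raw counts, made with featureCounts 1.6.2 over Ensembl 95 (GRCm38) exons, reverse-stranded, leaving out reads that map or overlap more than once, per the file headers. STAR 2.5.1 and Subread are named per the submitters' processing notes. Gene symbols came from GENCODE M21, found for 54809 of 54838 identifiers. No files were identical, and replicates differed beyond sampling noise.

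The main test was edgeR's quasi-likelihood test (version 4.0.16, R 4.3.3, robust fit, TMM scaling) on genes kept by filterByExpr, whose minimum count is 10 and minimum total 15. Calls required a Benjamini-Hochberg adjusted p under 0.05 over all genes tested. Each challenge was fitted with its own controls, and the difference in a joint fit. For the cluster sum, 1 row of summed counts replaced the Mup rows. SE was derived from the fold change and its F value. Intervals and floors cover counting error only. Per-sample values are given for the 8 members of highest mean CPM and Mup20, and other lists by counts and the 2 genes of smallest adjusted p. Genes behind small counts were named after their values were seen. Members and lists were chosen with earlier results of these data known. The fit was tested on simulated counts with known changes. Alternatives were other scalings, DESeq2 1.42.0, other filters, a replicate block and leaving out single samples. Promoter windows came from RefSeq (GRCm38.p6), without the bases after the start. Python 3.11.15, numpy 2.4.6, pandas 2.3.3, scipy 1.17.1 and matplotlib 3.10.9 were used.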

Additional observations from a re-analysis of the deposited data

Results flagged for a closer look

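The response to CCl4 and the response to PH differed by test for the Mup cluster sum, with a contrast of -1.34 on the log2 scale (a more negative value is a larger fall after CCl4). The same held for the plain genes Mup7 (-1.34), Mup2 (-1.64), Mup9 (-1.59), Mup1 (-1.65), Mup10 (-1.52), Mup11 (-1.47), Mup12 (-1.50), Mup22 (-1.54), Mup13 (-1.45), Mup15 (-1.48), Mup16 (-1.35), Mup17 (-1.54), Mup18 (-1.35), Mup19 (-1.54), Mup5 (-1.53) and Mup3 (-0.99). It also held for the pseudogenes Mup-ps1 (-4.15), Mup-ps3 (-3.72), Mup-ps7 (-5.69) and Mup-ps13 (-2.32), whose counts after CCl4 were 0 or few for Mup-ps1, Mup-ps3 and Mup-ps7, so that their fitted sizes are no measure of size. Injection and surgery were separate experiments, and experiment and challenge cannot be told apart.

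Mup-ps12 in PH day 3 sample 16, at 4.76 CPM, stood apart from the other 4 samples of its group. It was 1 of 68 groups of values examined, and chance alone flags about 1 in 20.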

How the results depend on the processing

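Both falls of the cluster sum passed the edgeR test under each alternative tried, including the sum over members without the -ps suffix. With 1 sample left out the sum changed by -3.52 to -3.19 after CCl4 and by -2.06 to -1.84 after PH, and their difference by -1.50 to -1.17. Scaled by library size, the sum changed less, by -2.87 after CCl4 and by -1.83 after PH. Members called lower numbered 31 to 33, 32 to 35 and, for the difference, 10 to 20 with 1 sample left out. The difference of the cluster sum was no longer called with library size scaling (-1.03, adjusted p = 0.0811) or without the low-count filter (-1.32, adjusted p = 0.068), and with library size scaling 13 members were called in it; the cause was not tested. No tested member reversed in the pairwise alternatives run, nor did any of those called in the difference. Over all genes, 787 to 1836 were called lower after CCl4 with 1 sample left out, the lowest without olive oil liver 3 and the highest without CCl4 liver 1. Mup-ps4 and Mup-ps19 lost their call after CCl4 in at least 1 alternative, Mup-ps1 after PH, and 11 of the 20 members called in the difference.

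The labels do not say that PH samples with the same number come from the same animal, so the numbers were not taken as pairs. Samples with the same number deviated from their group means with correlations of -0.05 to 0.12, over 0.1 in 1 of 5 pairs. Resected and regenerating tissue differ in state, so these correlations cannot decide whether an animal was shared. With the replicate block the cluster sum changed by -1.96 after PH (adjusted p = 2.42e-08) and by -1.36 in the difference (adjusted p = 0.0169), with 33 and 17 members called lower. Low counts limit the pseudogenes: 5 were never counted and 11 members passed neither pairwise filter.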
